A study of Mus musculus with 12 samples.

Results

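The 36 genes described here are 18 genes of the Schwann cell myelin programme and 18 genes of cholesterol synthesis and its control, chosen by name out of the 35583 genes measured. They were followed in poly(A) RNA of dorsal root ganglia, where the cell bodies of sensory neurons lie along the spine, from mice at 24 weeks of age. Animals labelled WT gave 3 male and 3 female libraries. Animals labelled Q84 gave 1 male and 5 female libraries, and hold the human ATXN3 gene under its own regulatory sequence on a yeast artificial chromosome (YAC), with the expanded CAG repeat that causes spinocerebellar ataxia type 3 (SCA3). Strain and zygosity are not given in the labels, nor do they say whether libraries are of different animals, so a p-value speaks for the spread among libraries only. An Atxn3 transcript of 1000 bases, which can take up reads of the transgene, went against the label in 2 libraries: it was at 34.0 TPM in the library labelled WT female 2 and at 0.0612 TPM in the library labelled Q84 female 5, against 0 to 0.285 TPM in the other 5 labelled WT and 62.7 to 79.4 TPM in the other 5 labelled Q84. TPM is a transcript level scaled to transcript length and to a fixed total per library. The comparisons of WT with Q84 are therefore given over all 12 libraries as labelled and over the 10 left without these 2, and means by label are over 12 where no n of 5 is given.

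Schwann cells wrap sensory axons in myelin, a stack of membrane held together by dedicated proteins and very rich in cholesterol and galactolipids. The transcription factors Sox10 and Egr2 switch on the myelin genes, and myelinating cells make most of their cholesterol themselves. The pathway runs from acetyl-CoA through mevalonate, farnesyl diphosphate, squalene and lanosterol to cholesterol. Its genes are turned on together by SREBP2, the product of Srebf2, when sterols in the endoplasmic reticulum run low, usually with the factor NF-Y, which binds the box CCAAT. Neurons and satellite glia use the same enzymes, so in whole ganglia the sterol genes are not specific to Schwann cells.

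The box that NF-Y reads was in each sterol promoter that could be read. RefSeq (GRCm38.p6) gave a promoter window for 14 of the 18 sterol genes and 14 of the 18 myelin genes; Fdft1, Fdps, Sqle, Stard4, Drp2, Fa2h, Mbp and Sox10 have no entry. In the 250 bases before the transcription start, CCAAT was found on either strand in 14 of 14 sterol genes, and 8 of them had 2 or more boxes in 1 window. Of the 14 myelin genes 8 had a box and 2 had 2 or more. Over all 27025 genes with a window 37.5% had a box and 11.5% had 2 or more; base composition was not matched. The sterol element TCACNCCAC, a form of the site SREBP reads, was matched in a 300-base window of 1 sterol gene, Hmgcs1, and of no myelin gene (1.44% of all genes with a window). The EGR motif GCGNGGGCG was matched in 2 sterol and 0 myelin genes (6.27% of all genes with a window). The SOX motif ACAAAG was matched in 3 sterol and 3 myelin genes (21%), and the E-box CACGTG in 3 sterol genes and 1 myelin gene (8.09%). The 14 myelin genes had 29 windows and the 14 sterol genes 17, so a myelin gene had more windows in which to match. Motifs were searched on both strands and counted separately where they overlap, and a match is only a run of letters.

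The 6 stretches below, each 120 bases long and upstream of a start and read 5′ to 3′ on the gene's strand, show these boxes for the enzyme that makes HMG-CoA (Hmgcs1, chr13:119690111-119690230, plus strand), for the 3 enzymes whose values differed most between the labels (Idi1, chr13:8885486-8885605, plus; Lss, chr10:76531485-76531604, plus; Dhcr7, chr7:143830090-143830209, plus), for the lanosterol demethylase Cyp51 (chr5:4104698-4104817, minus) and for the sterol sensor partner Insig1 (chr5:28071162-28071281, plus). Capitals mark CCAAT, or ATTGG where the box is on the other strand, and in Hmgcs1 also TCACCCCAC.
Hmgcs1: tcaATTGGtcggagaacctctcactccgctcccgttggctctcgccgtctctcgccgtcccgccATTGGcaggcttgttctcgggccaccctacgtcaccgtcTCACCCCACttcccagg
Idi1: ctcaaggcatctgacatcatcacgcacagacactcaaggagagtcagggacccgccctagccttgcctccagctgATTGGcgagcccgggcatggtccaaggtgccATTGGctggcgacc
Lss: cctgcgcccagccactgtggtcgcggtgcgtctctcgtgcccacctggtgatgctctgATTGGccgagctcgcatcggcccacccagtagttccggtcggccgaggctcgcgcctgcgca
Cyp51: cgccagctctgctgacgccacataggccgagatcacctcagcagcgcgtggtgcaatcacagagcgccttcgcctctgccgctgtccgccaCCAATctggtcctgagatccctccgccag
Dhcr7: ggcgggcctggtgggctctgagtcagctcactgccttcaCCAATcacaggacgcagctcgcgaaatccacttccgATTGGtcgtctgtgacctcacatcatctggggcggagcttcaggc
Insig1: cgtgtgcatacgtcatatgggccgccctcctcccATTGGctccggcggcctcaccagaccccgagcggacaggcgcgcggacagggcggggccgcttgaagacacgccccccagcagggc

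Across the 12 libraries the myelin genes spanned a wide range of levels per length. Pmp22, a membrane protein of compact myelin, was the highest, at 1535 ± 269 TPM (SD, n = 12). Mbp, which holds the cytoplasmic faces of the membrane together, was at 480.1 ± 161.1 TPM and the proteolipid Mal at 112.3 ± 27.5 TPM (SD, n = 12). The transcription factors were low, Egr2 at 3.92 ± 1.38 TPM and Sox10 at 1.78 ± 0.470 TPM (SD, n = 12). Nfasc, the adhesion protein neurofascin of axons and paranodal loops, was at 1.79 ± 0.383 TPM (SD, n = 12). The sterol genes lay on a higher and narrower scale. Hmgcs1, which makes HMG-CoA, was at 861.9 ± 81.0 TPM and Fdps, which makes farnesyl diphosphate, at 497.5 ± 43.4 TPM (SD, n = 12). The lowest sterol genes were Idi1 at 15.0 ± 3.02 TPM and Lss at 14.1 ± 2.94 TPM (SD, n = 12). Summed over 18 genes, the level per library was 1681 to 3269 TPM for the myelin genes and 2435 to 3282 TPM for the sterol genes.

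**Figure D1:**
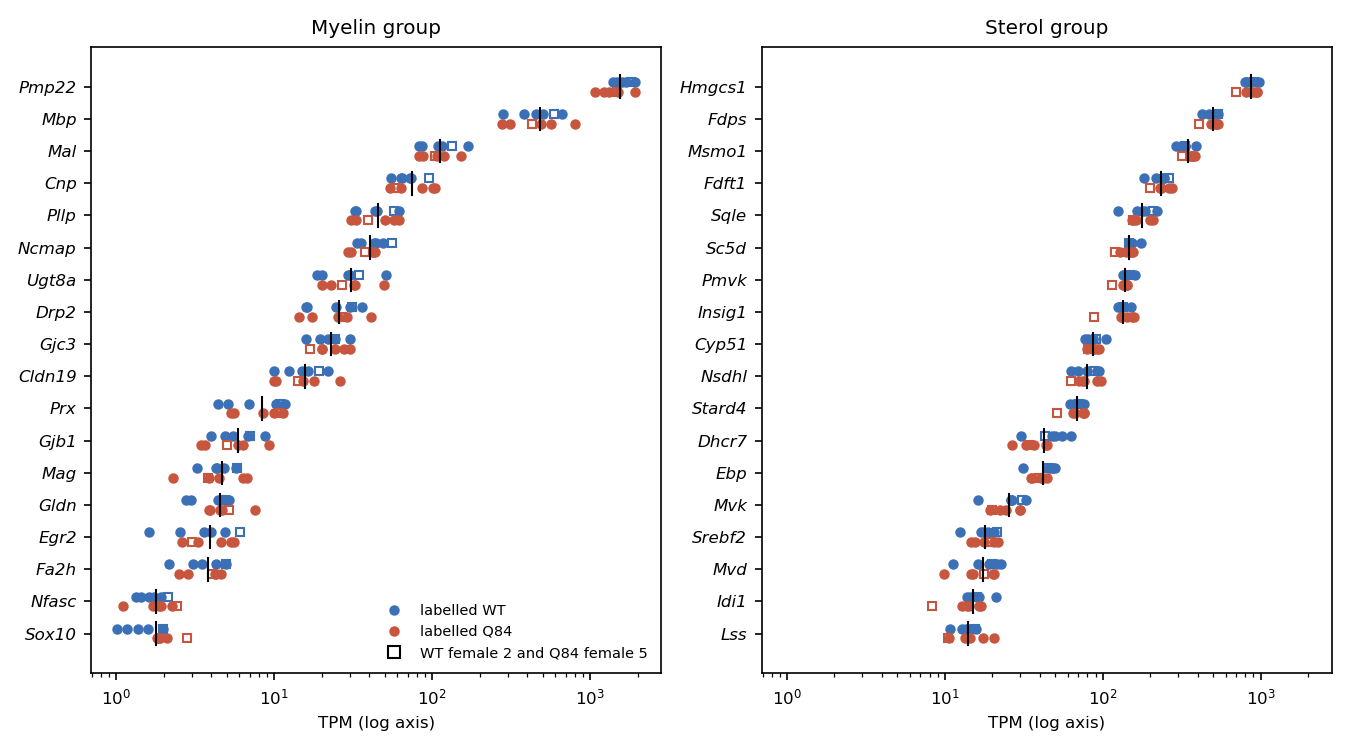
Level of each of the 36 genes in each of 12 libraries, in TPM on a log axis, with blue symbols for libraries labelled WT, red for Q84, open squares for WT female 2 and Q84 female 5, and a black tick at the mean of the 12. Blue and red symbols overlap for each gene, and the symbols spread more widely for the myelin genes (left) than for the sterol genes (right).

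Total estimated counts ran from 66490481 to 86891563 per library, and all 36 genes passed the filter on low counts. Of the cells of the labelled tissue, the 8 neuron markers summed to 6507 to 9830 TPM and the 8 satellite glia markers to 2773 to 4225 TPM. Oligodendrocyte markers summed to 56.7 to 97.0 TPM, of which Aspa made 67.2 TPM on average. The highest sums were 97.0 TPM in WT male 1 and 87.9 TPM in Q84 female 4. Mog, a defining marker of central myelin, was at 0.214 TPM on average, but unevenly. As a share of the TMM-scaled counts (CPM), it was at 0.0754 ± 0.0906 in WT and 0.386 ± 0.829 in Q84 (SD, n = 6 each). Mobp, of the same list, was at 2.105 ± 2.318 and 3.02 ± 6.01 CPM (SD, n = 6 each). These SDs exceed the means, so the means do not speak for each library. The share of counts on mitochondrial genes was 7.83 ± 0.935% (SD, n = 6) in libraries labelled WT and 10.1 ± 1.14% (SD, n = 6) in those labelled Q84. In whole tissue, fewer cells of a type and less RNA per cell cannot be told apart.

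The myelin genes differed between libraries far more than between labels, and did so together. In CPM, the count as a share of the library's TMM-scaled total, Mbp was at 880.4, 557.0 and 469.4 in WT males 1 to 3, 642.7, 705.9 and 362.8 in WT females 1 to 3, 950.3 in the Q84 male, and 632.6, 405.7, 405.8, 721.7 and 587.5 in Q84 females 1 to 5. The low libraries, WT male 3, WT female 3 and Q84 females 2 and 3, come from both labels, and so do the high ones, WT male 1 and the Q84 male. Ugt8a, the enzyme that makes the myelin galactolipid galactosylceramide, was high and low in nearly the same libraries, with 135.5 CPM in WT male 1 against 44.9 in WT male 3 and 50.7 in WT female 3. In WT male 3 and in WT female 3 all 18 myelin genes were below their own median over the 12 libraries, and each of these libraries was the lowest of all for 7 of them. WT male 1 was the highest for 8.

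The ratio of the highest to the lowest library ran from 1.66 for Ncmap, a myelin-associated membrane protein, to 3.55 for Egr2. The SD of log2 CPM over the 12 libraries had a median of 0.41 over the myelin genes (0.23 to 0.54) and was for 18 of 18 above 0.18, the median of the 10430 tested genes of at least 5 CPM. Over the 153 pairs of myelin genes the median Pearson r of log2 CPM across the 12 libraries was 0.743, with 77.1% of pairs above 0.5, beside a median of -0.0005 and 14.3% over pairs of all other genes of at least 5 CPM. These correlations are descriptions over the same 12 libraries and share their depth and tissue makeup. The closest pairs were Mal with Ugt8a (r = 0.980) and the tight junction protein Cldn19 with Drp2 (r = 0.979). Against the mean of the other 17 genes, Drp2 and Prx, the dystrophin-related protein and the periaxin that form 1 complex at the outer Schwann cell membrane, had r of 0.973 and 0.954.

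A pair of genes stood outside this pattern. Sox10 had r = 0.439 with the other 17, and Nfasc had r = -0.08. Sox10 was at 3.08, 2.02 and 2.32 CPM in WT males 1 to 3, 3.58, 3.41 and 1.82 in WT females 1 to 3, 3.19 in the Q84 male and 3.41, 3.54, 3.78, 3.77 and 5.36 in Q84 females 1 to 5. Its highest value was thus in Q84 female 5, which was near the middle of the 12 for the myelin genes as a group. Sox10 also followed the mitochondrial share (r = 0.805 over the 12 libraries), as Gldn (r = 0.531) and Nfasc (r = 0.530) did less closely; the part of that share in their values was not tested.

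**Figure D2:**
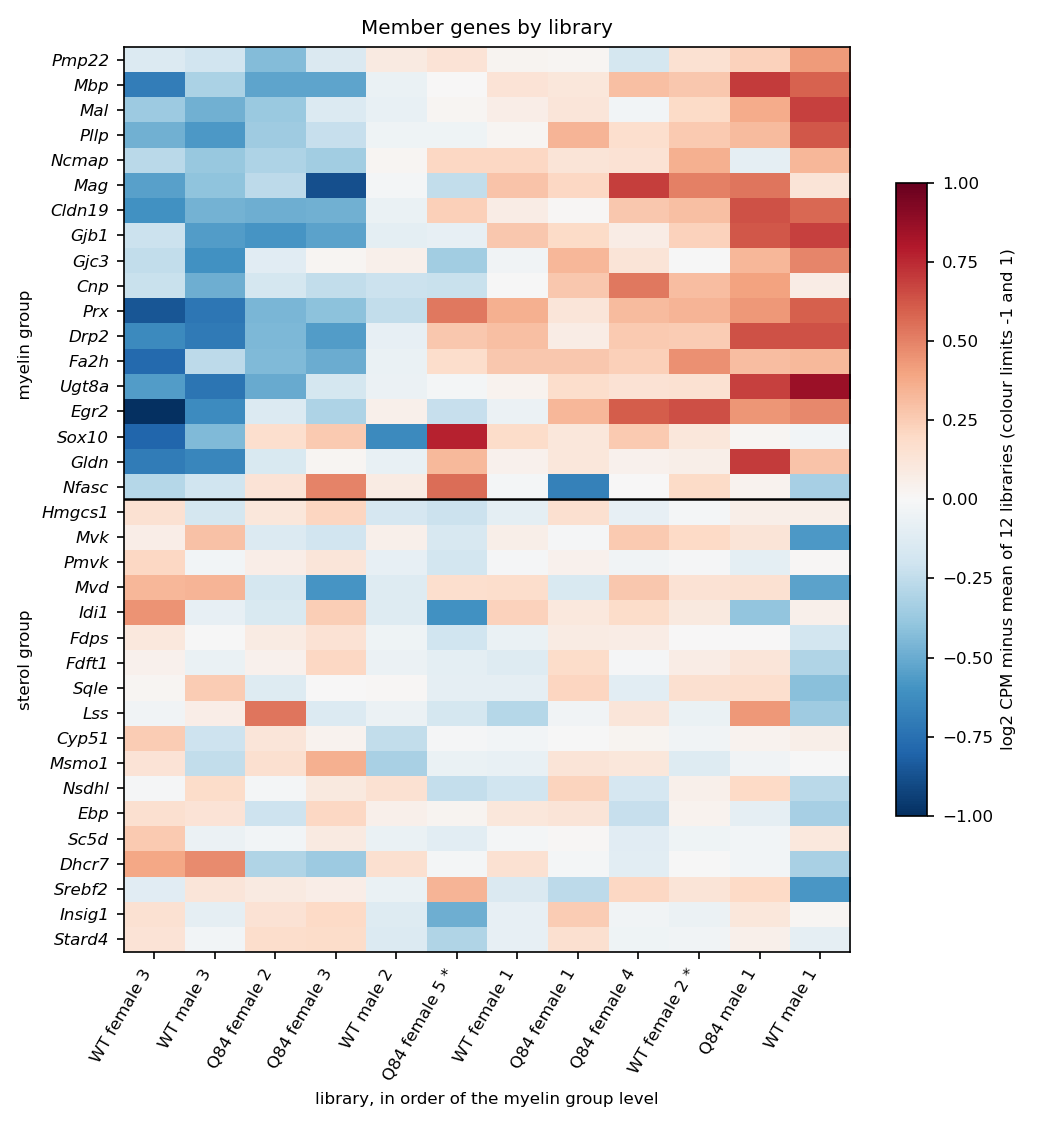
log2 CPM of each gene minus its mean over the 12 libraries (colour, limits at -1 and 1), with the 18 myelin genes above the line, the 18 sterol genes below it, and libraries ordered from left to right by the mean of the myelin genes; asterisks mark WT female 2 and Q84 female 5. The myelin rows turn from blue to red almost together from WT female 3 (4.58) to WT male 1 (5.52), while the sterol rows are paler and share less of a pattern.

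The sterol genes spread less than the myelin genes and about as much as a typical gene. The ratio of the highest to the lowest library ran from 1.27 for Fdps to 2.08 for Idi1, and the SD of log2 CPM had a median of 0.18 (0.10 to 0.32), above the 0.18 of all genes for 9 of 18. Over their 153 pairs the median r was 0.285, with 30.1% above 0.5 and 47 negative. A subset moved together: Insig1, which holds SREBP in the endoplasmic reticulum and is itself an SREBP target, had r = 0.941 with the sterol carrier Stard4 and r = 0.884 with Hmgcs1. Insig1 was at 235.6, 213.1 and 218.1 CPM in WT males 1 to 3, 219.3, 223.4 and 257.9 in WT females 1 to 3, 251.5 in the Q84 male, and 277.4, 257.6, 266.3, 226.4 and 165.7 in Q84 females 1 to 5. Q84 female 5 is the low one, and the other 11 lie within 213.1 to 277.4 CPM. Other close pairs were squalene epoxidase Sqle with the sterol dehydrogenase Nsdhl (r = 0.841) and the mevalonate enzymes Mvk and Mvd (r = 0.792), while Msmo1 and Dhcr7, an early and the last step from lanosterol, had r = -0.571. Srebf2 itself had r = 0.151 with the mean of the other 17.

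No myelin or sterol gene differed between the labels at an adjusted p under 0.05 (edgeR quasi-likelihood test with sex as a term, Benjamini-Hochberg over all genes tested). Over the 12 libraries 0 of 36 passed, where 0.0053% of the 18875 genes tested did. Without the 2 libraries that went against their label 0 of 36 passed, where 6.45% of 18721 genes did. Unadjusted p-values under 0.05 numbered 1 myelin and 2 sterol genes in the 12 libraries and 1 and 4 in the 10, beside 2695 and 3785 of all genes. DESeq2, limma-voom and limma on log2(TPM + 1) each called 0 of the 36 in both sets of libraries. The values of libraries labelled WT and Q84 overlapped for 36 of 36 genes in both sets. The share of all genes that overlap was not counted, so this shows nothing particular to the 36. Standard errors of the log2 fold changes over 12 libraries ran from 0.07 for Pmvk to 0.30 for Egr2, which sets how small a difference could have been seen. Positive fold changes below mean higher in Q84.

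Among compact myelin proteins the log2 fold change over 12 libraries was -0.06 (SE 0.12) for Pmp22, 0.14 (SE 0.23) for Mbp, 0.03 (SE 0.18) for Mal and 0.09 (SE 0.21) for Pllp, a tetraspan proteolipid. Over the 10 libraries it was -0.04 (SE 0.13), 0.28 (SE 0.27), 0.12 (SE 0.22) and 0.22 (SE 0.24) for these genes. For Mbp the mean was 603.0 ± 182.6 CPM (SD, n = 6) with the WT label and 617.3 ± 206.1 CPM (SD, n = 6) with Q84. Ncmap was at -0.13 (SE 0.16) over 12 and -0.08 (SE 0.17) over 10. In non-compact myelin and its junctions, the axon-facing adhesion protein Mag was at 0.08 over 12 and 0.30 over 10 libraries, and Cldn19 at 0.15 and 0.26. The gap junction protein Gjb1 was at -0.03 and 0.06, a change of sign, its relative Gjc3 at 0.16 and 0.25, and the phosphodiesterase Cnp at 0.19 and 0.37. The periaxin pair was at 0.15 and 0.20 for Prx and at 0.12 and 0.19 for Drp2. The lipid enzymes were at 0.02 and 0.16 for Fa2h, the fatty acid hydroxylase, and at 0.18 and 0.29 for Ugt8a. Of these the smallest adjusted p in the 10 libraries was that of Cnp, at 0.37 (SE 0.18, adjusted p = 0.276, edgeR).

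The myelin genes with the largest values were the transcription factors and gliomedin. Gldn, which Schwann cells secrete to cluster sodium channels at nodes of Ranvier, was at 17.45, 13.5 and 9.07 CPM in WT males 1 to 3, 14.7, 14.9 and 8.79 in WT females 1 to 3, 23.1 in the Q84 male and 15.4, 12.9, 14.5, 14.7 and 17.9 in Q84 females 1 to 5. The labels overlapped, with 2 low WT libraries below all Q84 ones and the Q84 male above all others. Its log2 fold change was 0.40 (SE 0.19, adjusted p = 0.347) over 12 libraries and 0.48 (SE 0.20, adjusted p = 0.214) over 10, both with edgeR. With WT female 1 also left out of the 10, which leaves the low WT female 3 as the only WT female, it was 0.75 with an adjusted p of 0.0486 (edgeR). Sox10 was at 0.41 (SE 0.20, adjusted p = 0.365) and 0.40 (SE 0.20, adjusted p = 0.307). Egr2 was at 0.20 (SE 0.30, adjusted p = 0.825) and at 0.58 (SE 0.30, adjusted p = 0.323) without the 2 libraries. Nfasc was at 0.19 in both. Over the 18 myelin genes the median log2 fold change was 0.14 (15 positive) in 12 libraries and 0.24 (16 positive) in 10, beside a median of 0.01 over all genes in each. The median over 12 libraries was -0.079 with the replicate number as a block and -0.0011 in females alone. It was -0.0019 without the Q84 male and -0.0058 without WT female 3, so its sign was not stable. Over the 10 libraries it was 0.082 with the block and 0.13 in females alone. Replicate numbers 4 and 5 occur in Q84 females only, so the block fits those libraries exactly and they do not bear on its fold changes.

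In the mevalonate steps the largest value was that of Idi1, the isomerase that makes dimethylallyl diphosphate. It was at 20.4, 18.03 and 18.7 CPM in WT males 1 to 3, 23.2, 21.1 and 27.0 in WT females 1 to 3, 15.0 in the Q84 male and 21.2, 17.8, 23.5, 22.4 and 12.98 in Q84 females 1 to 5. Q84 female 5 and the Q84 male were the lowest of the 12, Q84 female 2 was just below the WT range, and the other 3 Q84 libraries lay among the WT ones. The log2 fold change was -0.30 (SE 0.14, adjusted p = 0.354) over 12 libraries and -0.28 (SE 0.10, adjusted p = 0.157) over 10 (edgeR). Hmgcs1 had a mean of 1836 ± 171.1 CPM (SD, n = 6) with the WT label and 1950 ± 212.4 CPM (SD, n = 6) with Q84, and its value was 0.07 (SE 0.09) over 12 and 0.10 (SE 0.09) over 10. The kinase Mvk was at -0.06 and 0.015, the kinase Pmvk at -0.06 in both, Mvd at -0.14 and -0.17, and Fdps at 0.04 and 0.08.

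Of the squalene and lanosterol steps, Lss, which closes squalene epoxide into lanosterol, had the largest value. It was at 40.0, 49.0 and 53.5 CPM in WT males 1 to 3, 42.0, 48.9 and 49.9 in WT females 1 to 3, 68.9 in the Q84 male and 49.98, 74.2, 46.4, 55.7 and 45.2 in Q84 females 1 to 5. The Q84 male and Q84 female 2 stood above the rest, and the other 4 Q84 libraries lay within or just above the WT range. The log2 fold change was 0.31 (SE 0.13, adjusted p = 0.320) over 12 libraries and 0.39 (SE 0.14, adjusted p = 0.151) over 10 (edgeR), the smallest adjusted p among the 36 genes in each set. On log2(TPM + 1) the difference over 12 libraries was 0.09. By transcript, the coding Lss-201 was at 5.49 ± 0.996 TPM in WT and 5.47 ± 2.60 TPM in Q84, and the retained-intron transcript Lss-204 at 4.69 ± 0.706 and 6.35 ± 1.68 TPM (SD, n = 6 each). Over the 10 libraries Lss-201 was at 5.48 ± 1.11 and 6.16 ± 2.22 TPM and Lss-204 at 4.53 ± 0.656 and 6.37 ± 1.87 TPM (SD, n = 5 each); these transcripts were looked at after the gene's values were seen and were not tested. Squalene synthase Fdft1 was at 0.12 (SE 0.08) and 0.19 (SE 0.08, adjusted p = 0.225, edgeR), and Sqle at 0.02 and 0.09.

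Between lanosterol and cholesterol, Dhcr7, the reductase of the last step, was at 48.0, 67.1 and 83.6 CPM in WT males 1 to 3, 66.8, 59.9 and 78.4 in WT females 1 to 3, 59.1 in the Q84 male and 59.2, 48.7, 46.7, 56.0 and 59.3 in Q84 females 1 to 5. The 6 Q84 libraries lay within 46.7 to 59.3 CPM, below 5 of the 6 WT libraries, and WT male 1 lay among them. The log2 fold change was -0.29 (SE 0.13, adjusted p = 0.335) over 12 libraries and -0.36 (SE 0.15, adjusted p = 0.209) over 10 (edgeR). With WT male 1 also left out of the 10, it was -0.43 with an adjusted p of 0.0178 (edgeR). Leaving out the WT library that lay among the Q84 ones widens the gap between the labels, so that pass adds no support. Dhcr7 ran opposite to the mitochondrial share (r = -0.747 over 12 libraries), whose part in this value was not tested. The methylsterol oxidase Msmo1 was at 0.16 over 12 and 0.15 over 10 libraries, Nsdhl at 0.08 and 0.15, and Cyp51 at 0.02 and 0.0092. The desaturase Sc5d was at -0.08 and -0.09 and the isomerase Ebp at -0.09 and -0.11. Of the regulators, Srebf2 was at 0.20 (SE 0.13) and 0.23 (SE 0.14), but at 0.03 over 12 libraries on log2(TPM + 1), and Insig1 was at 0.07 and 0.13. The carrier Stard4 was at 0.07 and 0.11. Over the 18 sterol genes the median was 0.03 (11 positive) in 12 libraries and 0.09 (12 positive) in 10; over 12 it was -0.0235 on log2(TPM + 1) and -0.0045 in females alone.

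**Figure D3:**
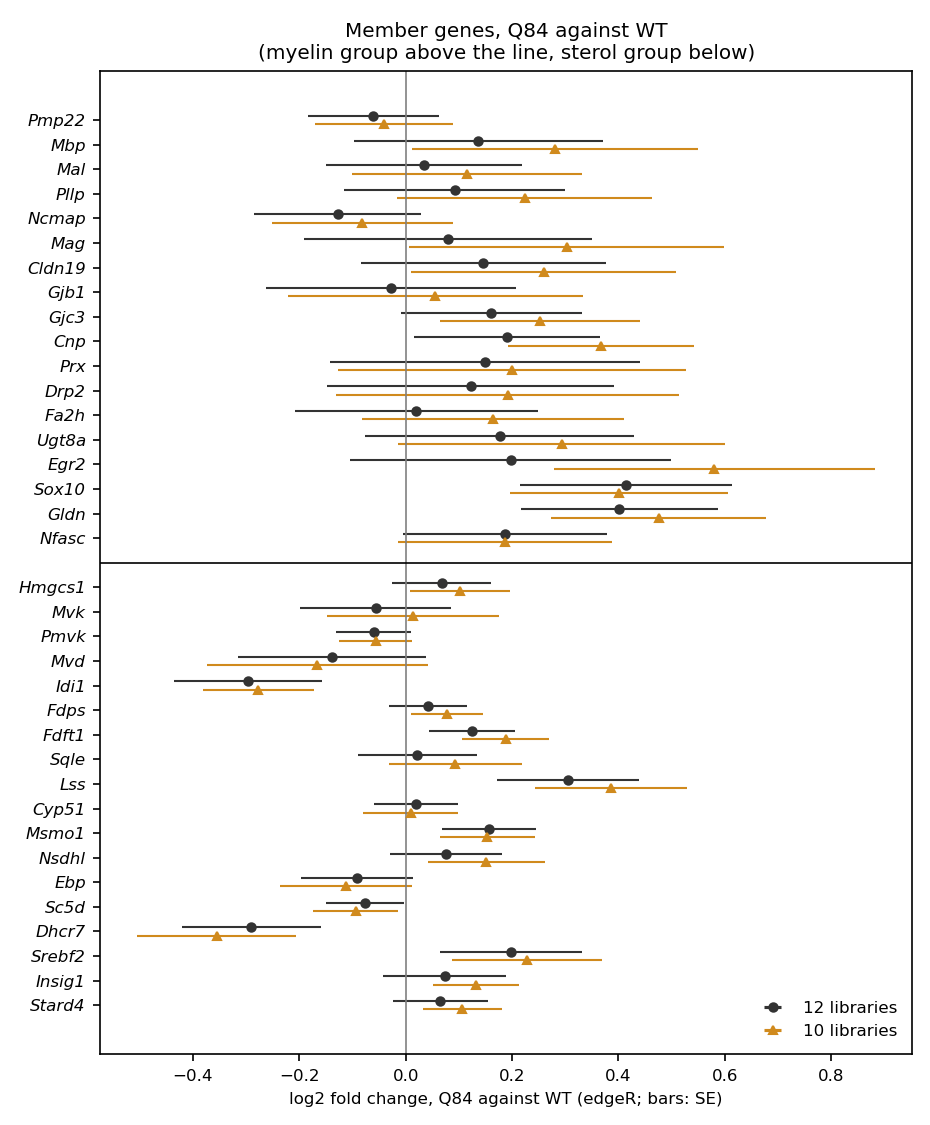
log2 fold change of Q84 against WT for each of the 36 genes, with bars of 1 SE, over 12 libraries (black circles) and over the 10 without WT female 2 and Q84 female 5 (orange triangles), from edgeR with sex as a term. Most values lie within 2 SE of 0, those of Sox10, Gldn, Lss, Idi1 and Dhcr7 are farthest from it in units of SE over 12 libraries, and no gene passed.

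Males did not differ from females in these genes at the threshold: 0 of 36 passed in the 12 libraries, where 0.0636% of genes did, with 1 sterol and 0 myelin genes at an unadjusted p under 0.05. DESeq2 and limma-voom also called 0. The median log2 fold change of male against female was 0.19 for the myelin and -0.06 for the sterol genes, and WT male 1 and the Q84 male, the 2 libraries of highest myelin level, are 2 of the 4 male libraries. In the interaction of genotype and sex, which rests on 1 Q84 male, 0 of 36 passed (0.0424% of genes did), 0 had an unadjusted p under 0.05 and the smallest adjusted p was 0.906 (edgeR).

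As a summary per library, the myelin level and the sterol level are the mean log2 CPM over the 18 genes of each kind. The myelin level was 5.06 ± 0.39 in WT and 5.16 ± 0.28 in Q84 (SD, n = 6 each), and 5.00 ± 0.40 and 5.15 ± 0.31 (SD, n = 5 each) without the 2 libraries. Within WT alone it ran from 4.58 to 5.52. The sterol level was 6.973 ± 0.12 in WT and 6.999 ± 0.07 in Q84 (SD, n = 6 each), and 6.965 ± 0.13 and 7.028 ± 0.02 (SD, n = 5 each) without the 2 libraries. It was lowest in WT male 1 (6.78) and Q84 female 5 (6.85) and highest in WT female 3 (7.14). Over the 12 libraries the difference between the labels, 0.10 for the myelin and 0.03 for the sterol level, was smaller than the SD within either label. Over the 10 libraries the difference was 0.15 for the myelin level, again smaller than both SDs. For the sterol level it was 0.06, above the SD within Q84 (0.02) and below that within WT (0.13).

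The myelin and sterol levels did not rise together over the 12 libraries, although the Q84 male was high in both (5.51 and 7.04). WT male 1 had the highest myelin level and the lowest sterol level, WT female 3 the reverse, and over the 12 libraries Pearson's r was -0.514 and Spearman's rho -0.315. Without the 2 libraries that went against their label r was -0.559, and without the 2 farthest from the median sterol level, WT male 1 and Q84 female 5, it was -0.354 (rho -0.139). Within the 6 WT libraries r was -0.777 and within the 6 Q84 libraries -0.04. On log2(TPM + 1) in place of log2 CPM it was -0.03, so the inverse relation depends on the scale. No p is given, since the genes were chosen with results known. Of the 324 pairs of a myelin and a sterol gene 275 had a negative r, with a median of -0.236, and 1 was above 0.5. Total counts had r = -0.512 with the sterol level and -0.07 with the myelin level; the part of depth was not tested.

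**Figure D4:**
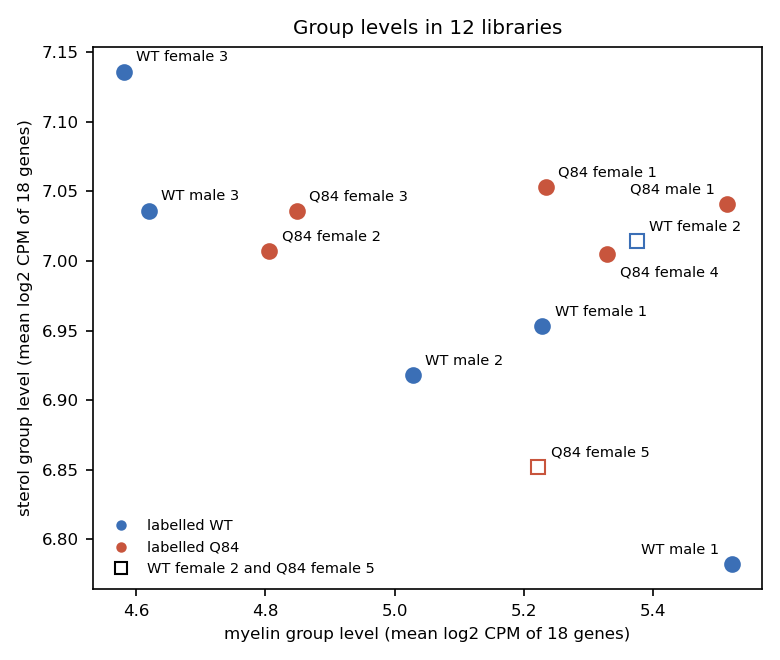
Sterol level against myelin level (mean log2 CPM of 18 genes each) in 12 libraries, blue for WT and red for Q84, with open squares for WT female 2 and Q84 female 5. The points of both labels overlap along the myelin axis, from 4.58 to 5.52 for WT and from 4.81 to 5.51 for Q84, WT female 3 and WT male 1 lie at opposite corners, and 5 of the 6 Q84 libraries lie within 7.005 to 7.053 on the sterol axis.

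Of the markers of other cells and tissues, those of skeletal muscle and endothelium moved with the myelin level. The 6 skeletal muscle markers summed to 5.60 to 604.6 TPM in WT and 5.83 to 1336 TPM in Q84, with r = 0.786 and rho = 0.776 between their mean log2 CPM and the myelin level over the 12 libraries. The Q84 male had 1336 TPM and Q84 female 3 had 5.83 TPM. The 6 endothelial markers summed to 46.6 to 69.0 TPM in WT and 48.7 to 74.8 TPM in Q84 (r = 0.824, rho = 0.741). The satellite glia markers (r = 0.252), neuron markers (r = -0.156) and fibroblast markers (r = 0.263) followed the myelin level less. Lists of adipocyte, liver, red blood cell, macrophage, keratinocyte and steroid-producing cell genes had r from -0.04 to 0.447 with the myelin level. By label, the log2 fold change for Q84 over the 12 libraries was positive for 7 of 7 fibroblast (median 0.52), 7 of 7 adipocyte (1.51), 6 of 6 liver (2.30), 6 of 6 muscle (1.03), 6 of 6 red blood cell (1.18), 6 of 6 macrophage (0.27) and 5 of 6 endothelial markers (0.22), and for 0 of 5 keratinocyte markers (-7.47). None of these passed over 12 libraries. Over 10, 1 fibroblast, 1 adipocyte and 1 liver marker rose and 3 keratinocyte markers fell. The liver markers summed to 68.3 TPM in the Q84 male and to 3.31 to 5.84 TPM in the other libraries. The keratinocyte markers summed to 149.1 TPM in WT female 1 and to 5.36 to 8.54 TPM in the others. In summed TPM the liver and the keratinocyte difference thus each rest on 1 library. By single gene over the 10 libraries, Krt14 and Krt1 were lower in Q84 without overlap, while Krt5, Krt15 and Krt10 overlapped. The share of all genes without overlap was not counted. The part of RNA from these tissues, or from central myelin, in the myelin values was not tested. Mag (8.535 CPM) and Cnp (165.8 CPM) were highest in Q84 female 4, while Mbp (950.3 CPM) was highest in the Q84 male. Among Q84 libraries, Q84 female 4 also had the highest sum of oligodendrocyte markers (87.9 TPM). Neuron markers, 8 of 8 with a negative log2 fold change for Q84 and 0 of 8 past the threshold in either set of libraries, had r = -0.485 (rho -0.629) with the sterol level.

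For the other genes of the same pathways, over the 12 libraries 0 genes passed in each of 8 further lists of sterol, lipid, Schwann cell and node genes, which hold 105 genes. Over the 10 libraries 9 of the 105 did, or 8.57%, beside the 6.45% of all genes. Of these 9, 7 fell and 2 rose, and of all 18721 genes 923 fell (4.93%) and 285 rose (1.52%), so falls outnumbered rises in both. There, 0 of 9 other sterol synthesis genes, 0 of 12 other genes of SREBP control and uptake and 0 of 18 genes listed as regulators of the myelin programme passed. The symbol Taz in that last list is tafazzin, a mitochondrial enzyme, in the annotation used, and the partner of Yap1 that once had this name was not in the list. In fatty acid synthesis 1 of 12 fell, Thrsp, a regulator of lipogenesis (log2 fold change -0.41, adjusted p = 0.0494, edgeR). In sterol efflux and LXR control 1 of 11 rose, Mylip, an LXR target that marks lipoprotein receptors for degradation (0.42, adjusted p = 0.0474, edgeR). Me1, malic enzyme, which supplies NADPH, was at 186.7 ± 15.5 CPM (SD, n = 5) with the WT label and 217.0 ± 9.53 CPM (SD, n = 5) with Q84, without overlap, and did not pass (adjusted p = 0.0921, edgeR); it was singled out after its values were seen.

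The Schwann cell genes that passed in the 10 libraries lay outside the 18 chosen ones. Of 16 other Schwann myelin genes 1 fell, the tetraspanin Tspan2, from 200.9 ± 21.8 CPM (SD, n = 5) to 112.2 ± 6.85 CPM (SD, n = 5), which is -0.81 on the log2 scale (SE 0.09, adjusted p = 0.000287, edgeR). Of 16 genes of non-myelinating and repair Schwann cells 3 fell and 1 rose. Ngfr, the low-affinity neurotrophin receptor, was at 55.8 ± 8.89 CPM in WT and 29.5 ± 4.68 in Q84 (SD, n = 5 each; adjusted p = 0.00195, edgeR), Scn7a, a sodium channel relative found in non-myelinating Schwann cells and neurons, had a log2 fold change of -0.56, and Shh one of -0.97. Bdnf, a neurotrophin, went from 37.1 ± 1.98 to 57.7 ± 3.26 CPM (SD, n = 5 each; adjusted p = 0.000543, edgeR). Of 11 axonal node and paranode genes 2 fell, the potassium channel Kcna1 (-0.50) and contactin Cntn1 (-0.30). Ngfr, Scn7a, Bdnf and Kcna1 are also expressed by sensory neurons, and which cells these values come from was not tested. Over all 12 libraries none of these passed, with Tspan2 at -0.62 (adjusted p = 0.108, edgeR).

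Beyond the 36 genes, those most like each level over the 12 libraries were ranked by Pearson's r among 10398 genes of at least 5 CPM. Nearest to the sterol level were Ttpal (r = 0.947), Prmt2 (0.946), Acat2 (0.924), Rcan3 (0.914), Pdss2 (0.900) and Praf2 (0.894). Most opposite were Zcwpw1 (-0.880), Cav2 (-0.859) and Lox (-0.838). Nearest to the myelin level were Slc36a2 (0.956), Gas2l3 (0.948), Npepl1 (0.933), Chrdl1 (0.933), Epb41l2 (0.929) and Cdc42ep3 (0.928), and among the most opposite were Sulf1 (-0.807) and 1810058I24Rik (-0.804). Above 0.8 were 41 genes for the sterol and 80 for the myelin level, and none of the genes named here passed for Q84 against WT in either set of libraries.

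By transcript, 2 of 8 shares, both of Mag, passed over the 12 libraries as labelled and 0 of 8 over the 10. Transcripts with at least 10% of their gene's TPM were compared for Mag, Mbp, Nfasc and Prx. Mbp-211 held 67.9 ± 3.34% of Mbp in WT and 69.1 ± 1.35% in Q84, and Nfasc-202 held 95.6 ± 1.19% and 92.9 ± 3.09% of Nfasc (SD, n = 6 each). Prx-204 held 53.3 ± 8.48% and 49.3 ± 15.0% of Prx (SD, n = 6 each). For Mag the share of Mag-203 was 67.8, 52.3 and 53.8% in WT males 1 to 3, 28.7, 76.5 and 43.0% in WT females 1 to 3, 40.5% in the Q84 male, 38.5% in Q84 female 4 and 0.00088 to 0.0189% in Q84 females 1, 2, 3 and 5. The 4 libraries at almost none were all labelled Q84 and all female, among them Q84 female 5, while the other 2 Q84 libraries lay among the WT ones. The means were 53.7 ± 17.1% and 13.2 ± 20.4% (SD, n = 6 each). By a two-sided exact permutation test p was 0.00866, or 0.0346 adjusted over the 8 transcripts, and over the 10 libraries, with 49.1 ± 14.5% and 15.8 ± 21.6% (SD, n = 5 each), the exact permutation p was 0.0317, or 0.127 adjusted over the 8. The share of Mag-201 went the other way, at 14.2 ± 14.6% and 56.9 ± 18.5% (SD, n = 6 each; exact permutation p = 0.00649, adjusted 0.0346), and at 16.0 ± 15.6% and 55.1 ± 20.1% over the 10 libraries (SD, n = 5 each; exact permutation p = 0.0238, adjusted 0.127). Both transcripts together held 67.9 ± 9.39% in WT and 70.0 ± 6.87% in Q84 (SD, n = 6 each; exact permutation p = 0.654). They share all 1746 coding bases and 2413 exon bases, and differ in only 6 bases of Mag-201 and 21 of Mag-203, outside the coding part, in the M21 annotation. At a gene level of 4.65 ± 1.31 TPM (SD, n = 12) the division between these 2 transcripts rests on the reads that touch those bases, and is uncertain. In WT libraries too a share could be almost none: Mag-201 was at 0.403% in WT male 1 and 0.00472% in WT male 3. The permutation tests did not take sex into account.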

How the data were processed

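Poly(A) RNA of whole dorsal root ganglia was measured in 12 libraries. Per the file headers, the deposited tables give estimated counts, unscaled, and TPM for 116313 transcripts, in the columns that kallisto writes. The submitters' processing notes list STAR 2.7.10b, kallisto 0.46.2 and GRCm39, with no role stated. Ensembl identifiers were matched to genes in GENCODE M21 (98.3% of transcripts; the rest held 0.751 to 0.804% of counts and was left out), and counts were added up by gene and rounded. Kallisto divides shared reads by likelihood, so near-identical transcripts are uncertain.

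Counts were filtered (filterByExpr, 4 groups), TMM-scaled and fitted in edgeR 4.0.16 with quasi-likelihood, robust, on sex and genotype, with Benjamini-Hochberg adjustment over all genes and a threshold of 0.05. Levels per library are log2 CPM with a prior count of 2. Alternatives were DESeq2 1.42.0, limma 3.58.1 (voom, and log2(TPM + 1) of the deposited TPM), RLE scaling, no filter, females alone, the replicate block, and leaving out each library. The fits were tested on simulated data. Of genes changed 1.5-fold there, 46% were recovered with 12 libraries and 44% with 10. Of genes changed 2-fold, 90% and 74% were recovered, so changes of about 1.5-fold can be missed. Replicates differed by more than sampling noise (chi-square per degree of freedom 28.9 or more).

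The 36 genes, the lists and the tests were chosen with earlier results of these data known. Named are the 36 genes, in other lists the genes that passed, and the 6 most and 3 least alike genes per level, of which 1 is not reported here. The interaction and the values of single genes over 10 libraries were added after the data were seen. RefSeq promoters are from GRCm38.p6, not the build of the files, so no coordinates were taken from the files.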

Additional observations from a re-analysis of the deposited data

Results flagged for a closer look

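Of 76 sets of 6 libraries of 1 label (each gene, and each level), 7 had a library far from the other 5, a gap of more than 0.625 of the whole range; chance gives about 1 set in 20. WT male 1 was low for 2 sterol genes: Mvk was at 15.5 CPM there against 23.9 to 28.4 in the other WT libraries, and Ebp at 35.5 CPM against 45.9 to 49.8. WT female 3 was high for another pair: Pmvk was at 112.6 CPM against 92.1 to 98.6, and Stard4 at 249.8 CPM against 206.8 to 222.2. Among Q84 libraries, Q84 female 5 was high for Sox10, at 5.36 CPM against 3.19 to 3.78, and low for the sterol level, at 6.85 log2 CPM against 7.005 to 7.053, while Cyp51 was high in Q84 female 2, at 252.5 CPM against 230.3 to 238.6. Of the 7, 6 are sterol genes or the sterol level, and Sox10 is the myelin gene.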

How the results depend on the processing

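In the comparison of labels 0 of the 36 genes passed over the 12 libraries under each setting run. Over the 10 libraries the count was 0 except when 1 library was left out, where it ran from 0 to 1. Dhcr7 passed without WT male 1 (-0.43, adjusted p = 0.0178, edgeR) and Gldn without WT female 1 (0.75, adjusted p = 0.0486, edgeR). For Dhcr7, WT male 1 was the WT library that lay among the Q84 values, so leaving it out widens the gap between the labels. Each call is from 1 of the fits that leave a library out, and the share of all genes passing there is not given. Over all genes the calls in the 12 libraries were 1 (edgeR), 620 (DESeq2), 15 (no filter), 140 (log2(TPM + 1)) and 639 (replicate block), and with edgeR 0 in females alone and 1082 without Q84 female 5. In the 10 they were, in the order of these first 5 settings, 1208, 1934, 1123, 936 and 701. Whether the replicate numbers pair the libraries could not be decided. Deviations of same-numbered libraries had r from -0.318 to 0.377 (median 0.145, 9 pairs). Those of other pairs had r from -0.512 to 0.332 (median 0.00025, 30 pairs), so the ranges overlap. Replicate numbers 4 and 5 occur in Q84 females only, so the replicate block fits those libraries exactly and its results rest on the other numbers. The correlation of myelin and sterol levels was -0.033 on log2(TPM + 1), -0.141 after genotype, sex and the replicate block were removed, and -0.644 to -0.353 with each library left out. The median myelin log2 fold change over 12 libraries was -0.079 with the replicate block, -0.0011 in females alone and -0.0058 to 0.26 with each library left out.

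Of 288 log2 fold changes of single genes over 12 libraries under other settings, 263 kept their sign and 25, of 16 genes, did not. None passed. Over the 10 libraries they were Gjb1 at 0.056 and Mvk at 0.015. In females alone they were Mbp at -0.049, Mal at -0.050, Mag at -0.15, Cldn19 at -0.025, Drp2 at -0.069, Fa2h at -0.088, Sqle at -0.045 and Cyp51 at -0.036. On log2(TPM + 1) they were Mag at -0.018, Hmgcs1 at -0.011, Fdps at -0.011, Sqle at -0.029, Cyp51 at -0.041, Insig1 at -0.0061 and Stard4 at -0.018. With the replicate block they were Mbp at -0.085, Mal at -0.073, Pllp at -0.035, Mag at -0.17, Cldn19 at -0.089, Prx at -0.12, Drp2 at -0.13 and Fa2h at -0.18. With each library left out, 29 of 432 values, of 12 genes, changed sign. The ranges were -0.26 to 0.072 for Gjb1, -0.046 to 0.080 for Sqle, -0.051 to 0.13 for Mal, -0.15 to 0.20 for Fa2h, -0.036 to 0.096 for Cyp51, -0.013 to 0.22 for Pllp, -0.15 to 0.26 for Mag, -0.021 to 0.29 for Prx, -0.013 to 0.54 for Egr2, -0.050 to 0.29 for Mbp, -0.026 to 0.31 for Cldn19 and -0.071 to 0.26 for Drp2. The cause of these changes was not tested. The SE of single genes, up to 0.30 on the log2 scale, limits what 6 libraries a label can show.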
